A study of Mus musculus with 24 samples.

Results

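Deoxynucleotide synthesis in mouse epidermis was followed through 9 genes, named by their enzyme function: Rrm1, Rrm2, Rrm2b, Tk1, Tyms, Dtymk, Dctd, Dut and Dck. All 9 were found by symbol among the 17721 genes of a table in which the study's authors compared daily rhythms between 2 genotypes. EpiKO mice were labelled as lacking Bmal1, a transcription factor at the heart of the circadian clock, by a Cre recombinase under the keratin 14 promoter, which drives expression in basal keratinocytes, and the clock was described as present in their other tissues. Back skin was taken from male C57BL/6 EpiKO mice of 8 weeks, fed standard chow in a cycle of equal light and dark phases, with 4 animals at each of 6 times spaced 4 h apart from lights on (zeitgeber time, ZT, 0), which gave 24 libraries of polyadenylated RNA from epidermis split off with dispase. The comparison group was wild-type (WT) epidermis, whose libraries are not samples of this series, so genotype and set of libraries cannot be told apart.

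Cells make deoxynucleotides, the building blocks of DNA, mainly when they copy their genome. Ribonucleotide reductase, formed from the large subunit RRM1 and a small subunit, either RRM2 or RRM2B, turns ribonucleotides into deoxyribonucleotides. Thymidylate is made from dUMP by thymidylate synthase (Tyms), dUMP is supplied by dUTPase (Dut) and by dCMP deaminase (Dctd), thymidine is salvaged by thymidine kinase 1 (Tk1), and thymidylate kinase (Dtymk) carries both routes on towards dTTP. Deoxycytidine kinase (Dck) salvages deoxycytidine and purine deoxynucleosides. In the epidermis, dividing cells lie in the basal layer and the hair follicle.

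The table gives, for each gene and genotype, a mean level (log2), the peak-to-trough height of a fitted cosine curve and its peak time, and a weight from 0 to 1 for each of 5 models: no rhythm, a rhythm in EpiKO only, in WT only, the same rhythm in both, or different rhythms. A weight is the relative support that the authors' fit gave a model, by the Bayesian information criterion, and not a p-value. Here a gene was assigned to a model with a weight of at least 0.5. Values per library are not in it, so depth is unknown and the spread between animals cannot be given. Errors given as approximate SE were derived here from the ratio of the deposited weights. Gene positions are those of GENCODE M21. In a bulk sample, fewer cells of a type and less RNA per cell cannot be told apart.

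The deleted gene, Bmal1 (listed as Arntl), had a mean level of 9.495 in WT and 9.65 in EpiKO (log2) in the authors' deposited table, so its RNA was not lower in EpiKO. Which exons were deleted is not stated in the labels, and a level over the whole gene does not check the loss of a part of it. Its rhythm was assigned to WT only (weight 0.882), at 4.65-fold with a peak at ZT22.7. Basal keratinocyte markers were abundant, with mean levels of 13.68 to 17.82 in WT and 13.39 to 17.73 in EpiKO for 7 of 7 genes (log2) in the authors' deposited table. The median of 6 spinous and granular keratinocyte markers was 15.60 in WT and 14.46 in EpiKO, with Sbsn at 15.59 and 13.84 and Ivl at 9.70 and 10.16. T cell markers reached at most 6.68 in WT and 7.57 in EpiKO, and 0 of 5 were assigned a rhythm. Fibroblast markers lay between 1.90 and 8.23, with 0 of 6 rhythmic, and their median level was 6.52 in WT and 7.13 in EpiKO in the authors' deposited table. The median of 5 Langerhans cell markers was 8.09 in WT and 9.33 in EpiKO. Of 6 melanocyte markers 5 were assigned a rhythm, 3 of them the same in both genotypes, and Tyr had a mean of 8.65 in WT and 3.60 in EpiKO while Dct had a shared mean of 7.597. The muscle gene Acta1 had a mean of 9.90 in WT and 2.21 in EpiKO, and the other 3 muscle markers lay at or below 1.17 in the authors' deposited table. The part of these cell types in the results was not tested.

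Promoter sequences are shown for 4 members whose upstream bases hold motifs of cell cycle or clock factors, to set beside their rhythms in the 2 genotypes. RefSeq promoters (build GRCm38.p6) were matched for 8 of the 9 members. Each line gives 150 bases upstream of the annotated start, 5′ to 3′ along the gene's strand, and that of Rrm2 ends 13 bases before the RefSeq start from which its motifs are counted. They are chr7:102441545-102441694 (forward strand), chr12:24708091-24708240 (forward), chr1:93801935-93802084 (reverse) and chr5:30073626-30073775 (reverse). Capitals mark a 7-letter E2F motif (the word TTGGCGC or its variants with other middle letters, which are TTGCCGC, then also TTCGCGC, then also TTCCCGC), the box with letters CCAAT, an E-box (CACGTG), which BMAL1 with CLOCK can bind, or a GC box (GGGCGG), read on either strand.
Rrm1: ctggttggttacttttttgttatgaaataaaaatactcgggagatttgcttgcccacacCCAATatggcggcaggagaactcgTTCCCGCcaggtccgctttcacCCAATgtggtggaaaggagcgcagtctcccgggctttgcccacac
Rrm2: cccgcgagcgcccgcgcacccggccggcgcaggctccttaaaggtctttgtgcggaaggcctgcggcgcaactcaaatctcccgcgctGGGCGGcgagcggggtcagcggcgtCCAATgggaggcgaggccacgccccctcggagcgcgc
Dtymk: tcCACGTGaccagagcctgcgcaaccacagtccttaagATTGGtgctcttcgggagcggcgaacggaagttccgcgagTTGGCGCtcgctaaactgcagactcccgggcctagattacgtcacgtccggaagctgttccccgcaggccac
Tyms: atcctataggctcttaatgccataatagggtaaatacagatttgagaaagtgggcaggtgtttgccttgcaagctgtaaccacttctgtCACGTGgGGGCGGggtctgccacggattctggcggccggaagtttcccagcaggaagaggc

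In the 250 bases before the start, Rrm1 had CCAAT boxes beginning 91 and 45 bases upstream with TTCCCGC at 67 bases between them. Dtymk had TTGGCGC at 72 bases, a CCAAT box on the other strand at 112 bases and an E-box at 148 bases. Rrm2 had a CCAAT box at 50 bases and a GC box at 75 bases, and its E2F match lay at 235 bases, outside the stretch shown. In Tyms an E-box at 61 bases was followed by a GC box at 54 bases. The E2F motif was present for 3 of 8 members, against 7.97% of 27025 promoters, the CCAAT box for 4 of 8 (34.5% of promoters), the E-box for 2 of 8 (6.05%) and the GC box for 6 of 8 (32.9%). The stricter 8-letter E2F motif (TTTGGCGC, TTTGCCGC, TTTCGCGC or TTTCCCGC), which contains the 7-letter one, was in 0 of 8 and in 1.91% of promoters. A mitotic motif, the cell cycle homology region (TTTGAA or TTCGAA), was in 1 of 8, Dck, and in 17.4% of promoters. These matches describe letters and do not show binding, and the 7-letter motif was added after the 8-letter one had given no match.

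Of the 9 members, 5 were assigned a rhythm in WT only (Rrm2b, Dut, Dck, Dctd and Dtymk) and 3 different rhythms in the 2 genotypes (Tk1, Rrm1 and Rrm2). Tyms was left unassigned. Over all genes of the table, 8.41% were assigned to WT only and 2.65% to different rhythms. The 2 classes together held 11.1% of all genes. They held 15.7% of the more abundant genes, those with a mean of at least 7.61 (the median of all). All 9 members are among these more abundant genes. The class with the same rhythm in both genotypes, 16.7% of all genes, held 0 members, and that with a rhythm in EpiKO only (4.31%) also held 0. No rhythm was assigned to 0 members, against 56.7% of all genes. Summed over the 9 genes, the weight of a rhythm was 7.85 in WT and 4.43 in EpiKO.

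**Figure D1:**
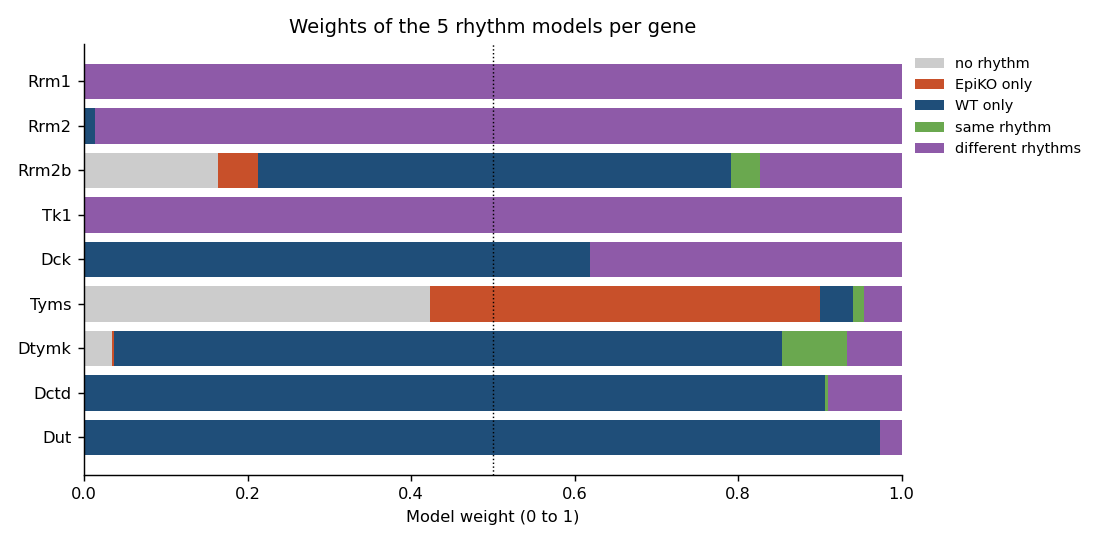
Stacked bars give the weight of each of the 5 rhythm models (0 to 1) for each member, with a dotted line at the limit of 0.5. Tk1, Rrm1 and Rrm2 are filled by the model of different rhythms, Dut and Dctd by WT only, and Tyms is divided between no rhythm (0.423) and EpiKO only (0.477).

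Rrm1 (ENSMUSG00000030978, chromosome 7, 102441695 to 102469771, mm10) encodes the large, catalytic subunit of ribonucleotide reductase. Its fitted WT curve read 10.58, 10.45, 10.55, 10.78, 10.92 and 10.82 (log2) at ZT0, 4, 8, 12, 16 and 20. In EpiKO the curve read 11.005, 11.12, 11.03, 10.82, 10.71 and 10.80 at the same times, so the genotypes were furthest apart at ZT4, where WT was lowest and EpiKO highest. The peak moved from ZT16.3 in WT (approximate SE 0.682 h) to ZT4.23 in EpiKO (0.756 h) in the authors' deposited table, a distance of 11.9 h (approximate SE 1.02 h). The height of the rhythm was similar, 1.38-fold peak over trough in WT (approximate 95% interval 1.23 to 1.55) and 1.33-fold in EpiKO (1.19 to 1.48). The authors' deposited table gives different rhythms a weight of 0.99985.

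Rrm2 (ENSMUSG00000020649, chromosome 12, 24708241 to 24714146, mm10) encodes the small subunit whose protein is made in S phase and destroyed in mitosis. WT levels on the fitted curve were 8.497, 7.94, 7.83, 8.27, 8.82 and 8.94 (log2) from ZT0 to ZT20, and EpiKO levels were 9.21, 9.28, 9.07, 8.79, 8.72 and 8.93. EpiKO was higher from ZT0 to ZT12, WT was higher at ZT16, and at ZT20 the curves were nearly equal. Rrm2 had the largest WT amplitude of the members, 2.25-fold (1.83 to 2.75), larger than in 90.2% of the genes rhythmic in WT, and 1.503-fold (1.23 to 1.83) in EpiKO. The EpiKO height in log2 was 0.504 of that in WT. Peaks lay at ZT18.7 in WT (approximate SE 0.491 h) and ZT2.91 in EpiKO (0.941 h) in the authors' deposited table, 8.16 h later (approximate SE 1.06 h).

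The 2 subunits therefore peaked apart in WT, Rrm2 2.42 h after Rrm1 with an approximate SE of 0.840 h. That SE takes the 2 genes as independent, although both were measured in the same libraries. In EpiKO Rrm2 came first, by 1.33 h, which was close to its approximate SE of 1.21 h.

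Rrm2b (ENSMUSG00000022292, chromosome 15, 37923952 to 37961318, mm10) encodes the p53-inducible small subunit, which serves DNA repair and mitochondrial DNA in cells that are not dividing. It ran on another schedule than the rest. Its WT curve read 8.71, 8.70, 8.59, 8.49, 8.51 and 8.62 (log2), with a peak at ZT1.58 (approximate SE 1.19 h) in the authors' deposited table, 6.83 h after Rrm2 (approximate SE 1.29 h). The amplitude was the smallest of the 8 assigned members, 1.18-fold (1.07 to 1.305), and the weight of WT only, 0.579, was near the limit in the authors' deposited table. Rrm2b shared 10.6% of its 51-base windows with other genes, and its exons overlap those of Gm49085 on the opposite strand. Whether reads were counted by strand is not stated in the labels, so its level is less certain.

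Tk1 (ENSMUSG00000025574, chromosome 11, 117815526 to 117826092, mm10), the cytosolic thymidine kinase and a common marker of cell proliferation, ran as a near mirror image in the 2 genotypes. WT levels on the fitted curve were 8.54, 8.32, 8.49, 8.89, 9.12 and 8.94 (log2) from ZT0 to ZT20. Those on the fitted EpiKO curve were 8.82, 8.95, 8.84, 8.61, 8.48 and 8.59. The time of the WT trough was thus that of the EpiKO peak. Amplitude was 1.75-fold in WT (1.52 to 2.01) and 1.39-fold in EpiKO (1.21 to 1.59), and the peak moved from ZT16.3 (approximate SE 0.491 h) to ZT4.18 (0.828 h) in the authors' deposited table. Mean level did not separate the genotypes, since the authors' deposited table gives a shared mean of 8.72 with a weight of 0.868. Exons of Tk1 overlap Afmid on the opposite strand.

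**Figure D2:**
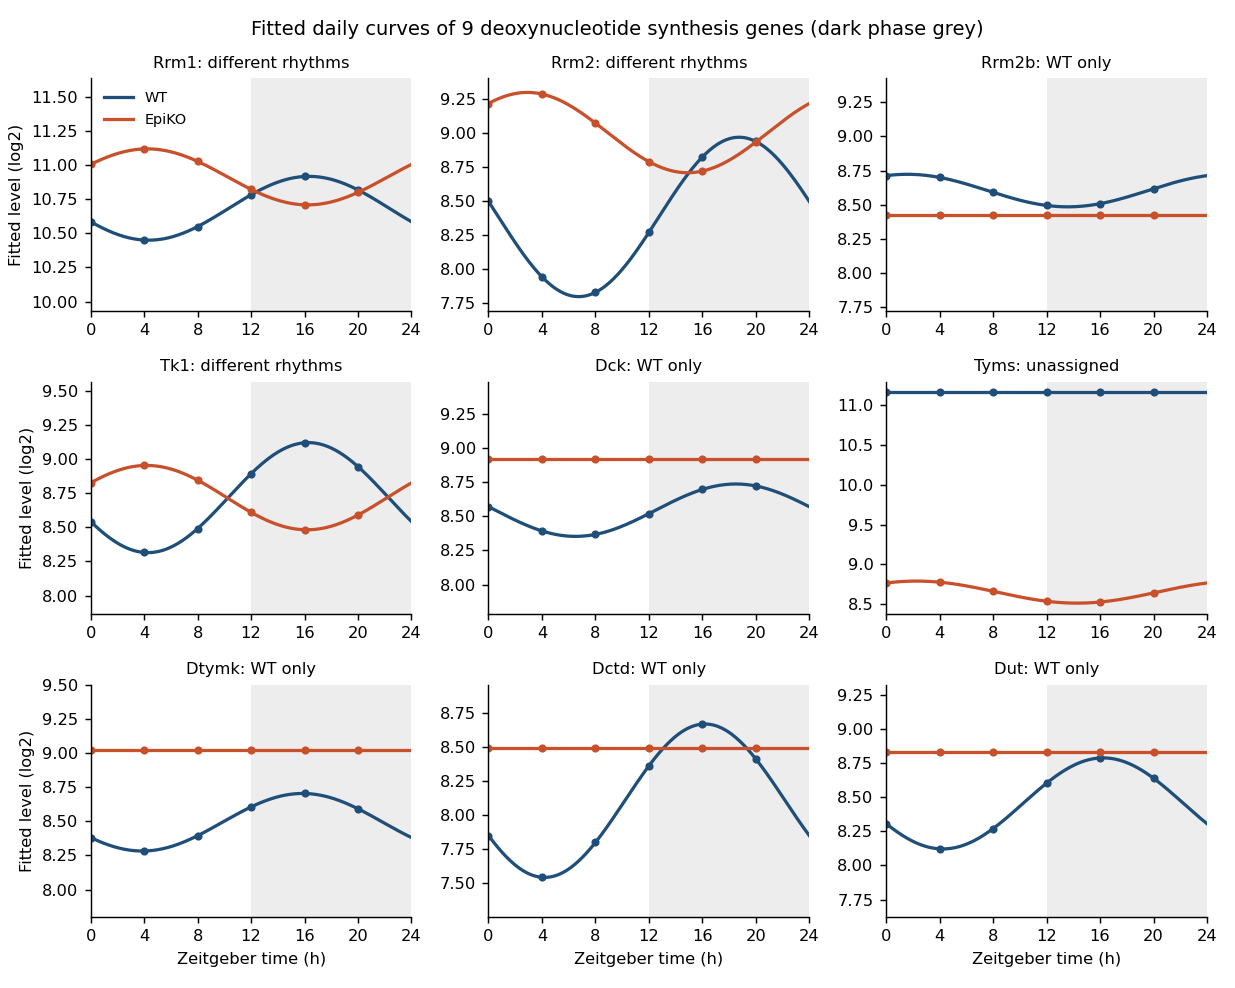
Fitted curves of the 9 members in WT (blue) and EpiKO (orange) over zeitgeber time in h, with the dark phase in grey. Points mark the fitted values at the 6 sampled times and are not measured levels. The y axes (log2) are set per gene, and that of Tyms spans more. Tk1 and Rrm1 are near mirror images with peaks at ZT16.3 and ZT4.18 or ZT4.23, and a flat line means that the chosen model has no rhythm there.

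In the thymidylate branch Dctd, Dut and Dtymk had similar peak times in WT, while Tyms was given no WT rhythm. Dctd (ENSMUSG00000031562, chromosome 8, 48099092 to 48153233, mm10) rose from 7.55 at ZT4 to 8.67 at ZT16 (log2) on the fitted WT curve, an amplitude of 2.18-fold (1.74 to 2.72), with a peak at ZT16.2 (approximate SE 0.556 h) in the authors' deposited table. Dut (ENSMUSG00000027203, chromosome 2, 125247190 to 125258608, mm10), which keeps uracil out of DNA by removing dUTP, went from 8.12 at ZT4 to 8.79 at ZT16, 1.59-fold (1.35 to 1.87), with a peak at ZT16.2 (approximate SE 0.685 h). Dtymk (ENSMUSG00000026281, chromosome 1, 93792576 to 93801934, mm10) went from 8.28 to 8.70 at these times, 1.34-fold (1.15 to 1.56), with a peak at ZT15.9 (approximate SE 1.02 h). In EpiKO all 3 were fitted by flat lines, at 8.49, 8.83 and 9.02 (log2) in the authors' deposited table.

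Dck (ENSMUSG00000029366, chromosome 5, 88764996 to 88783281, mm10), the salvage kinase, was a later gene. Its WT curve read 8.57, 8.39, 8.37, 8.52, 8.70 and 8.72 (log2), 1.305-fold from trough to peak (1.17 to 1.46), with a peak at ZT18.5 (approximate SE 0.821 h) in the authors' deposited table. EpiKO was fitted by a flat line at 8.92, above the WT curve at every time.

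WT peaks ran in the order Dtymk, Dctd, Dut, Tk1, Rrm1, Dck, Rrm2 and Rrm2b. The first 5 lay within 0.478 h of each other, less than their approximate SEs of 0.491 to 1.02 h, so their order is not resolved. Dck came 2.18 h after Rrm1 (approximate SE 1.07 h), and Dck and Rrm2 are not resolved from each other. Of 31 genes for S phase and DNA replication 29 were assigned to WT only (23) or different rhythms (6). The share was 11.1% of all genes and 15.7% of the more abundant ones. With a minimum weight of 0.8 the 29 became 19. The 29 genes peaked in WT between ZT12.4 and ZT16.7 with a circular mean of ZT14.3. The 5 early members lay at the late end of that range, Dck and Rrm2 after it, and all 7 before the mitosis genes. Of the mitosis genes 20 of 20 had different rhythms (2.65% of all genes), with WT peaks from ZT20.9 on and a circular mean of ZT22.7. The replication genes with the largest amplitudes were Orc1 (3.602-fold in WT, WT only), Mcm10 (2.79-fold in WT and 1.66-fold in EpiKO), Ccne2 (2.63-fold, WT only) and Cdt1 (2.57-fold and 1.44-fold), and those of mitosis Nusap1 (3.85-fold and 2.26-fold), Plk1 (3.72-fold and 2.08-fold), Bub1 (3.26-fold and 1.97-fold) and Ccnb2 (3.25-fold and 2.13-fold). Both lists were drawn up with earlier results of these data known.

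In EpiKO the 3 members with a rhythm peaked at a circular mean of ZT3.78. The 6 replication genes with different rhythms peaked there between ZT0.648 and ZT2.96, and the 20 mitosis genes between ZT4.40 and ZT7.11. The distance between genotypes was 9.32 to 12.0 h for these 6 replication genes and 6.12 to 8.24 h for the mitosis genes. Tk1 and Rrm1 (11.9 h each) lay in the first range. Rrm2 (8.16 h) lay at the upper end of the second, but its approximate SE of 1.06 h does not settle which range it belongs to. A distance of at least 11 h was found for 39 of all 470 genes with different rhythms.

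**Figure D3:**
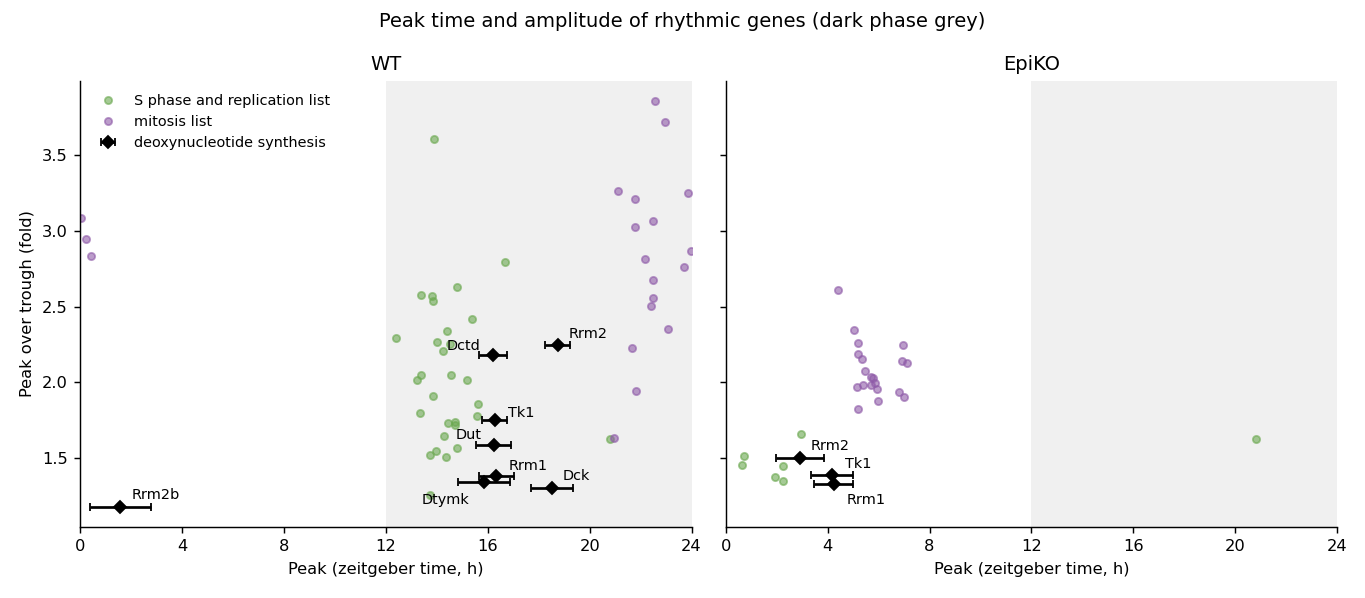
Peak time (zeitgeber time, h) against peak-over-trough fold for rhythmic genes in WT (left) and EpiKO (right), with members as black diamonds and bars of approximate SE in h, replication genes in green and mitosis genes in purple. The 7 members other than Rrm2b sit in WT from ZT15.9 to ZT18.7 between most replication genes and the mitosis genes, and in EpiKO 3 members sit from ZT2.91 to ZT4.23.

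How flat the 5 members of the WT-only class were in EpiKO was read from the weights. The table gives no EpiKO amplitude for them, but the ratio of the weights of different rhythms and of WT only, with the error of the WT curve, implies one. For the 470 genes with different rhythms, where the amplitude is deposited, the implied value was 1.01 times the deposited one (median, with 90% of genes from 0.912 to 1.09). These 470 genes all have a rhythm in EpiKO, so they do not check the reading for flat curves. A fitted amplitude is never negative, and noise alone gives 1.25 SE on average. In the WT-only class that model outweighs different rhythms, which by itself caps the implied amplitude. Closeness to noise is therefore in part set by the class. Dut had an implied EpiKO amplitude of 1.06-fold, 0.741 SE, below the 1.11-fold that noise gives. Dctd (1.22-fold, 1.77 SE) and Dtymk (1.14-fold, 1.66 SE) were little above the 1.15-fold and 1.10-fold that noise gives. Dck (1.16-fold, 2.60 SE) and Rrm2b (1.13-fold, 2.31 SE) stood further out, and different rhythms had weights of 0.381 for Dck and 0.174 for Rrm2b in the authors' deposited table. Against the WT height in log2, the implied EpiKO height was 0.133 for Dut, 0.258 for Dctd, 0.441 for Dtymk, 0.560 for Dck and 0.721 for Rrm2b, so a flat EpiKO curve was best supported for Dut and is not settled for Dck and Rrm2b.

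**Figure D4:**
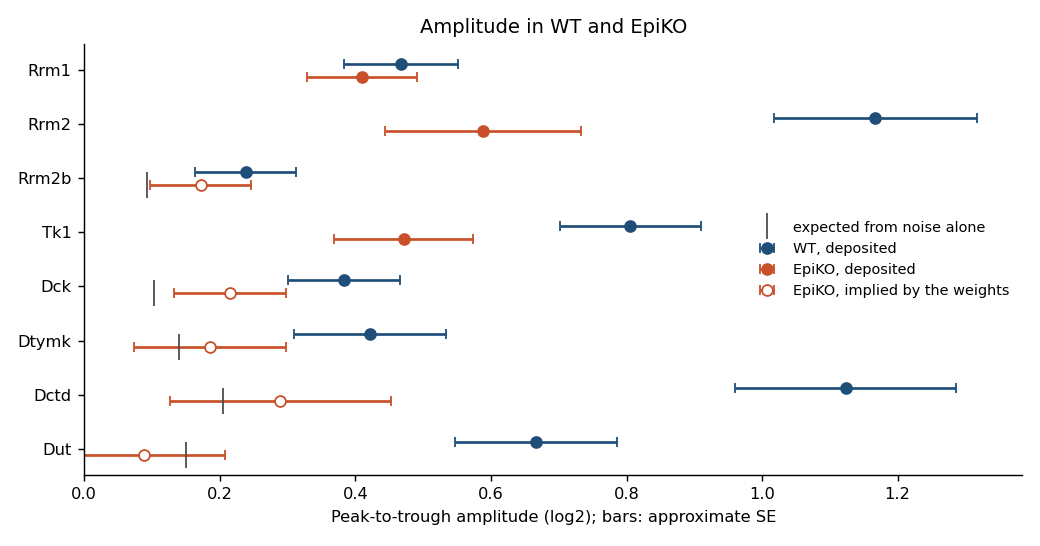
Peak-to-trough amplitude (log2) in WT (blue) and EpiKO (orange, filled where deposited and open where implied by the weights), with bars of approximate SE and grey ticks at the amplitude expected from noise alone. Rrm1 has nearly equal amplitudes in the 2 genotypes, Rrm2 has 1.17 in WT and 0.59 in EpiKO, and the open point of Dut lies below its tick.

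Mean levels over the day were higher in EpiKO for 6 members, lower for 2 and shared for 1. Among all genes 32.7% were called higher and 37.4% lower by the same rule, a weight of at least 0.5 for unequal means, and among the more abundant genes, those with a mean of at least 7.61 (the median of all), 44.4% and 36.7%, so the direction of any 1 member is common in the table. The difference, EpiKO minus WT in log2, was 0.62 ± 0.07 (approximate SE) for Rrm2 and 0.53 ± 0.06 for Dtymk in the authors' deposited table. Dctd (0.38 ± 0.08), Dck (0.38 ± 0.04), Dut (0.37 ± 0.06) and Rrm1 (0.23 ± 0.04) were also higher. Rrm2b was lower, by -0.18 ± 0.04. The median over the 9 members was 0.37 and that over all genes 0.00. These SEs leave out any difference between the genotypes' libraries in preparation or counting.

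Tyms (ENSMUSG00000025747, chromosome 5, 30058202 to 30073617, mm10) stood apart from its partners in mean level and in rhythm. Its mean was 11.17 in WT and 8.65 in EpiKO, a difference of -2.52 (log2) or 5.72-fold, in the authors' deposited table. Among the 8861 more abundant genes 127 were lower by more than this. Weights were 0.423 for no rhythm and 0.477 for a rhythm in EpiKO only in the authors' deposited table, and all models with a WT rhythm together had 0.100. The EpiKO curve read 8.77, 8.78, 8.66, 8.54, 8.53 and 8.64 (log2), 1.21-fold (1.06 to 1.39) with a peak at ZT2.27 (approximate SE 1.35 h), near that of Rrm2 in EpiKO.

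Tyms shared 5.57% of its 51-base windows with other genes, 135 in all, of which the processed pseudogene Tyms-ps had the most windows. Among the more abundant genes, 14.97% of those with 5 to 50% of windows shared were lower in EpiKO by more than 1 (log2). That share was 5.30% at 1 to 5% of windows shared and 1.31% under 1%. At 50% or more the share was 75.5%, and 0% were higher by more than 1. Tyms lies near the lower edge of the 5 to 50% class. The 25 more abundant genes that share windows with Tyms had a median difference of 0, and 12% were lower by more than 1. Of the 41 such genes of any level, Tyms-ps left out, 26.8% were lower by more than 1. The share among all genes was 16.8%. The part of shared sequence in the Tyms difference was not tested. Dut, Dck and Dctd shared 0% and Dtymk 0.646%, and their differences were 0.37 to 0.53. Tk1 (2.25% shared) had a shared mean, and Rrm1 (2.34%) differed by 0.23. Rrm2, with 4.73% shared, differed by 0.62, and Rrm2b, with 10.6%, by -0.18.

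**Figure D5:**
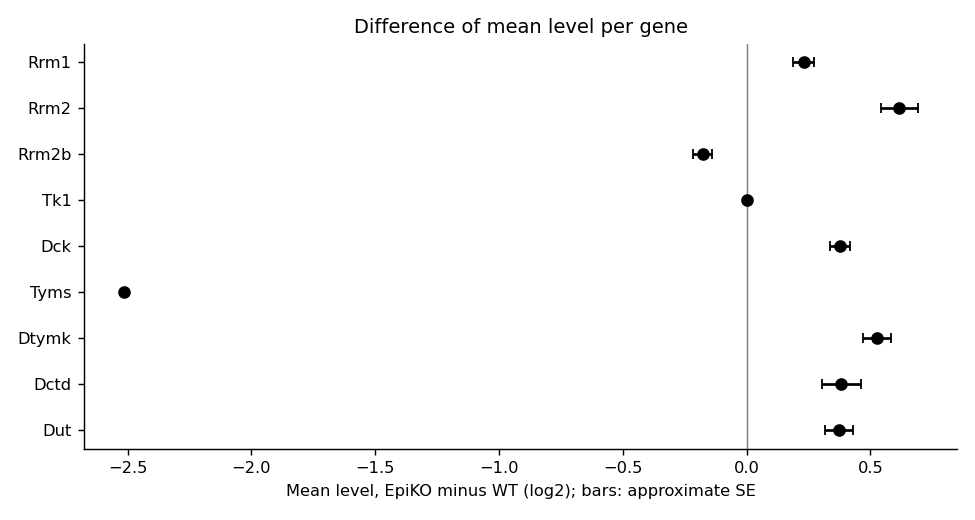
Difference of mean level, EpiKO minus WT (log2), for the 9 members, with bars of approximate SE; Tk1 has a shared mean and Tyms no SE, because its weight for equal means is listed at 0. Tyms lies at -2.52 and the others between -0.18 and 0.62.

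The wider nucleotide pathway behaved less uniformly. Of 59 measured genes in 5 lists of other nucleotide metabolism, 11 were assigned to WT only or different rhythms, against 11.1% of all genes and 15.7% of the more abundant ones, so the count was near the latter share. The folate cycle, which supplies the one-carbon unit for thymidylate, held 5 of these among 9 genes. The mitochondrial folate genes Mthfd1l (5.84-fold, ZT13.6) and Mthfd2 (3.17-fold, ZT19.4) were WT only, with larger amplitudes than any member. Aldh1l2, another mitochondrial folate enzyme, went the other way, with a rhythm in EpiKO only (2.22-fold, ZT5.86) in the authors' deposited table.

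Of 12 genes of pyrimidine ribonucleotide synthesis 7 were in the same-rhythm class, against 16.7% of all genes. Another 3 had no rhythm, namely Nme2, Nme3 and Nme6, of which Nme2 and Nme3 shared 46.96% and 83.3% of their windows. Ctps, which makes CTP, had 1.47-fold at ZT17.1 and Nme1, a nucleoside diphosphate kinase, 1.44-fold at ZT18.4 in both genotypes, although Nme1 overlaps another gene on its strand. Nme4, its mitochondrial relative, had 1.38-fold at ZT0.662 in both. Cad, the enzyme of the initial steps, had different rhythms but near peaks, ZT19.8 in WT (1.92-fold) and ZT21.0 in EpiKO (1.38-fold), in the authors' deposited table. Of 19 purine synthesis genes 5 had the same rhythm (16.7% of all genes), among them Impdh1 (1.57-fold, ZT18.1) and Ppat (1.36-fold, ZT14.8). In that list 6 were unassigned, 4 had no rhythm and 2 had a rhythm in EpiKO only (4.31% of all genes). There 1 was WT only (Aprt, 1.38-fold), and 1, Paics, had different rhythms (1.498-fold in WT, 1.20-fold in EpiKO). Of 15 genes of deoxynucleotide breakdown and salvage 9 had no rhythm, a share near the 56.7% of all genes, and Samhd1, the triphosphohydrolase that degrades deoxynucleotides, was among them (weight 0.932 in the authors' deposited table). Dctpp1, which hydrolyses dCTP, was WT only with 1.57-fold at ZT17.2, as was the nucleoside transporter gene Slc29a2 with 1.72-fold at ZT10.1. Slc29a1 (1.48-fold) and Cmpk2 (1.53-fold) had the same rhythm in both. Of 4 genes of the thioredoxin and glutaredoxin systems, which supply electrons to the reductase, Glrx (1.598-fold, ZT21.7) and Gsr (1.15-fold, ZT13.2) had the same rhythm and Txnrd1 had one in EpiKO only (1.53-fold, ZT5.42).

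Rrm2b is known as a p53 target, and 20 other p53 targets were examined beside it. Of these 2 were assigned to WT only (8.41% of all genes), 1 to EpiKO only (4.31%), 7 to the same rhythm (16.7%) and 5 to no rhythm (56.7%), and 5 were unassigned. The counts for WT only and EpiKO only were near the shares of all genes. The 2 were Ddit4 (1.71-fold, ZT9.42) and Ei24 (1.14-fold, ZT3.91) in the authors' deposited table. Trp53inp1 (2.21-fold, ZT9.19), Eda2r (1.51-fold, ZT5.55) and Aen (1.43-fold, ZT17.8) had the same rhythm in both genotypes, so peaks in this list were spread over the day.

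Genes most like each member were ranked by the root mean square difference of the fitted curves over 12 points (6 times in 2 genotypes), among 8852 other abundant genes. Nearest to Tk1 were Prim2 (0.0616 in log2), a subunit of the primase, Ncapg2 (0.0703), a condensin subunit, and Aaas (0.0866). Rrm2 lay nearest to Brca1 (0.110), which acts in homologous recombination, and Hirip3 (0.116). Rrm1 had Pmf1 (0.0511), Cep152 (0.0528) and Nrm (0.0534). Among the WT-only members, Dut was nearest to the replication kinase gene Cdc7 (0.00453), Nop56 and Tns2, Dtymk to Dnajc9 (0.00998), Qtrt2 and Tmem201, and Dctd to Hk2 (0.0140), Noct and Uhrf1. Dck was nearest to Mast2 (0.00453), Spidr and Klhdc4, and Rrm2b to Cdc42 (0.00240), Prune1 and Pggt1b. For a WT-only gene 6 of the 12 points are 0, so the values of the 2 classes are not on a par.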

How the data were processed

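The 1 file used is the authors' deposited table of the dryR comparison of EpiKO with WT epidermis named in the series design text. RNA-seq used single reads of 51 bases from a stranded kit, per the labels' protocols. The submitters' processing notes name mm10, featureCounts 1.6.0, HISAT2 2.2.1, Trimmomatic 0.36, edgeR and SAMtools 1.3.1. Settings and library scaling are not given in the sources used here.

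Each model's deposited score is a weight from the Bayesian information criterion. Mean levels and amplitudes are deposited as log2 values, with peak time in h, and folds are 2 to the power of the amplitude. The side labelled other than WT was taken as EpiKO. No test across libraries could be run from such a table. The protocols describe 4 mice at each time for each genotype, which would be 48 libraries in all.

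The ratio of weights of nested models, with the criterion's penalty for 48 libraries, gives a likelihood ratio statistic. The amplitude divided by its root was taken as the approximate SE, and the same root gave that of the peak time. The SE of a distance between 2 genes' peaks takes them as independent, so it leaves out that they come from the same libraries. The largest weight of the same-rhythm model implies 47.96 libraries. The derivation was tested on simulated data with a known variance. There it returns the true SE by its algebra, so the test covers the arithmetic only. How near the SEs come in the authors' fit, where the variance is not known, was not tested. Intervals at 95% are 1.96 SE each way.

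Gene symbols matched 17720 of 17721 identifiers. Shared windows of 51 bases were counted over GENCODE M21 transcripts, on either strand. Promoters are RefSeq's, the first listed start per gene. The members and lists were chosen with earlier results of these data known. All 9 members are named, up to 4 genes per list by amplitude among rhythmic genes, Samhd1, and the 3 most similar genes per member, except for items that are not reported here. Ei24 and the genes near Tyms were chosen after their values were seen. Alternatives were other weight limits (none, 0.4, 0.8), a minimum amplitude of 0.25 (log2), sums of weights and centring of means. Leaving out members with over 5% of windows shared was chosen after seeing the data. Python 3.11.15, NumPy 2.4.6, pandas 2.3.3, SciPy 1.17.1 and Matplotlib 3.10.9 were used.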

Additional observations from a re-analysis of the deposited data

How the results depend on the processing

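The values are the authors' fitted parameters without values per library, so leaving out animals was not possible and depth limits could not be given. No paired analysis was possible because the table holds no columns per library. Without a weight limit, or at 0.4, Tyms joined as 1 member with a rhythm in EpiKO only. With a minimum of 0.8, 3 members were WT only in place of 5. A minimum amplitude of 0.25 put 1 member, Rrm2b, in the class with no rhythm. Sums of weights over the members came to 0.529 for EpiKO only, 0.620 for no rhythm and 0.131 for the same rhythm, and 3.95 for WT only and 3.77 for different rhythms. The 3 members with different rhythms were the same number under every alternative that counts genes. Of the other nucleotide metabolism genes, 11 were WT only or had different rhythms, 5 with a minimum weight of 0.8 and 16.5 by sums of weights. For replication the 29 became 19 with a minimum of 0.8, and for p53 targets the 2 became 1 with a minimum amplitude of 0.25 and 3.62 by sums of weights. Centring on the median of all genes could not change the mean differences, because that median is 0. It falls among the genes given a shared mean, whose difference is set to 0, so this alternative is no check of the differences. Without Tyms and Rrm2b, the members with over 5% of windows shared, WT only held 4 and different rhythms 3, and the median difference of means was 0.38 (log2).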

Other observations

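Mean levels of genes within 500 kb of Tyms on chromosome 5 are given with their shared windows. Ube3c, Hadha and Selenoi, with 0.0522%, 0.318% and 0% of windows shared, had differences of 0.19, 0.19 and 0.44 (EpiKO minus WT, log2). In the same stretch Dnajb6 and Hadhb, with 20.9% and 19.6% shared, had -1.90 and -1.08 in the authors' deposited table. Among genes of low level there, Gm4961 (12.3% shared) had -1.97, Drc1 (0% shared) 0.68, and Garem2, whose 5.74% is closest to that of Tyms, a shared mean. Il6, Mir1960, Adgrf3 and Otof, each with 0% shared, also had a shared mean.

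Genes that overlap another on the same strand were counted in the same way. Of 699 genes at or above the median level with such an overlap 16.3% were lower by more than 1 (log2), against 5.33% of 8162 genes without. In the pyrimidine list, Nme2, which overlaps another gene on its strand, had a mean of 11.46 in WT and 3.94 in EpiKO, and Nme3 7.79 and -2.41, in the authors' deposited table. Nme1, with such an overlap too, was at 8.22 and 8.54. Nme1, Nme2 and Nme3 shared 11.1%, 46.96% and 83.3% of windows, so overlap and shared sequence are not separated in them. In the folate list Mthfs, with such an overlap too, differed by -3.37. None of the 9 members overlaps another gene on its own strand.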
